A study of Mus musculus with 16 samples.

Results

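The receptors of CD44high CD4+ spleen T cells were compared between Eomes knockout (KO) and wild-type (WT) mice that received control Ig in place of an antibody to 4-1BB. Cells with exactly 1 T cell receptor beta chain (TRB) and 1 or 2 alpha chains (TRA) were kept, because both chains are needed to name a clone. This left 17235 cells in 4 libraries, of 38108 such cells in the 8 receptor libraries of the series. The libraries are called WT 1, KO 1, WT 2 and KO 2 after the genotype and the experiment, which the labels mark as a batch. They held 4057, 2728, 4459 and 5991 paired cells.

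The WT mice of both experiments carried the reporter allele Eomes-IRES-GFP. The KO was Eomesfl/fl-CD4Cre in experiment 1, with Cre under a CD4 promoter that acts in all T cells that pass a CD4 stage, and Eomesfl/fl-ERT2CD4Cre in experiment 2, with tamoxifen given to the KO and to the WT mice of that experiment. All mice received an antibody that depletes NK1.1+ cells (50 µg on days -2 and 5), a Vk*Myc myeloma graft (Vk12653 cells) on day 0 and control Ig (20 µg on days 10, 13 and 16), and spleens were taken on day 18. The labels do not name the reporter for the KO mice, so loss of Eomes and absence of the reporter cannot be told apart, nor can the kind of KO and the experiment. The number of mice behind each library is not given, so the spread is that between single libraries, which may be technical.

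Eomes is a T-box transcription factor that acts in memory and cytotoxic T cells and in natural killer cells. CD44 is high on T cells that have met antigen and on memory-like cells. Each T cell joins 1 V, 1 D and 1 J segment into a beta chain and 1 V and 1 J segment into an alpha chain. Bases are trimmed and added at the joints, so the third complementarity-determining region (CDR3) that spans them is nearly unique to a founder cell. Cells with the same beta and alpha CDR3 nucleotides are read as 1 clone.

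The files give a median of 10 to 12 unique molecular identifiers (UMIs) per TRB and 6 to 8 per TRA, from totals of 80551 to 224646 UMIs per library. Of all cells with a chain, 47.2% of WT 1, 54.0% of KO 1, 48.9% of WT 2 and 53.0% of KO 2 met the rule. Cells with a TRB and no TRA made up 42.3%, 33.8%, 41.99% and 36.4%, lower in the KO of both experiments. Between 18 and 32 cell barcodes occurred in both libraries of a pair of these 4, and 0 of them carried the same receptor. The markers CD4 and CD44 are not in receptor tables, so the sort could not be checked in them. TRA labels of mucosal-associated invariant T cells (TRAV1 with TRAJ33) were found in 0, 0, 0 and 1 cells.

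Clone sizes were low in all 4 libraries. Cells of a library were counted as 1 clonotype when V, J and CDR3 nucleotides matched in TRB and in the main TRA, the one with most UMIs. There were 3425 clonotypes in WT 1, 2307 in KO 1, 3656 in WT 2 and 4773 in KO 2. Single cells accounted for 77.2%, 77.3%, 73.5% and 71.1% of the paired cells. The largest clonotype held 30 cells in WT 1, 20 in KO 1, 31 in WT 2 and 33 in KO 2, between 0.551% and 0.739% of its library.

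Because deeper libraries find more clone mates, the expanded share (cells in clonotypes of 2 or more) was computed for each library thinned to 2728 cells. It was 19.5% in WT 1, 22.7% in KO 1, 21.6% in WT 2 and 21.3% in KO 2. KO 1 lay above the other libraries, and KO 2 fell between WT 1 and WT 2. KO minus WT was 3.22 percentage points in experiment 1 and -0.212 in experiment 2, a mean of 1.51 ± 2.43 (SD, n = 2 experiments), smaller than its own spread. Without thinning the differences were -0.159 and 2.46, and with clones named by TRB alone (thinned) they were 3.41 and 0.842, so the sign within an experiment depended on these choices. Of random pairs of cells, 1 in 4256 shared a clonotype in WT 1, 1 in 3049 in KO 1, 1 in 4095 in WT 2 and 1 in 3921 in KO 2. On the log2 scale this Simpson concentration was higher in KO by 0.48 in experiment 1 and 0.06 in experiment 2. With clones named by TRB alone the differences were 0.27 and -0.10, and with 3 or more UMIs they were 0.55 and -0.0049, so the sign in experiment 2 turned in both settings.

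Large clones were more numerous in the KO library of each experiment. Clonotypes of 10 or more cells numbered 7 in WT 1, 8 in KO 1, 9 in WT 2 and 18 in KO 2. They held 2.54%, 3.63%, 2.87% and 4.79% of the cells, so both KO libraries lay above both WT libraries. The next class down, 5 to 9 cells, went the other way, with 4.91%, 3.70%, 6.68% and 6.31% of cells. These classes were counted without thinning, and KO 2 is the library with most cells.

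**Figure D1:**
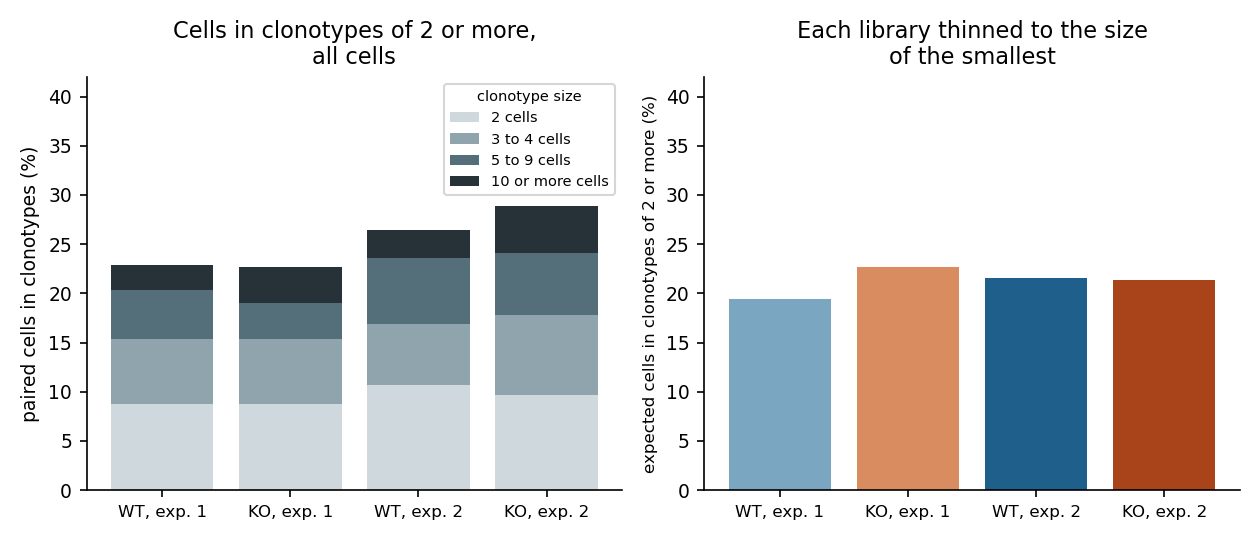
Left, percent of paired cells (y axis) in clonotypes of 2, 3 to 4, 5 to 9 and 10 or more cells, stacked, for each of the 4 control Ig libraries. Right, the expected expanded share after thinning each library to 2728 cells, which runs from 19.5% in WT 1 to 22.7% in KO 1.

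The CDR3 nucleotides of the largest clonotype of each library follow, to show the receptors that expanded furthest. Each is read 5′ to 3′ from the deposited tables, and capitals mark the bases that were assigned to neither the V nor the J segment. The ends of the segments were inferred from the chains themselves, without a germline reference, so the capitals are estimates.
WT 1 TRBV15-TRBJ2-1: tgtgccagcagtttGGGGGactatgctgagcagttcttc
WT 1 TRAV14-2-TRAJ31: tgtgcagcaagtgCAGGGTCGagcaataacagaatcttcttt
KO 1 TRBV12-2-TRBJ2-5: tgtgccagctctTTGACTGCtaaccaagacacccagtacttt
KO 1 TRAV14D-3-DV8-TRAJ12: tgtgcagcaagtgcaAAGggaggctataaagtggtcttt
WT 2 TRBV20-TRBJ2-7: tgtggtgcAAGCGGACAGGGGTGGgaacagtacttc
WT 2 TRAV3N-3-TRAJ30: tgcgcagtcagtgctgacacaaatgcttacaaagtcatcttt
KO 2 TRBV10-TRBJ2-5: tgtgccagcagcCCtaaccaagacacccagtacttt
KO 2 TRAV4-4-DV10-TRAJ49: tgtgctgctgagtaccagaacttctatttt

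These 4 receptors used 4 different TRBV and 4 different TRAV labels, and 0 cells of another control Ig library carried any of the 4 beta chains. The inferred bases between V and J numbered 5, 8, 16 and 2 in the beta chains and 8, 3, 0 and 0 in the alpha chains. A second productive TRA was read in 4 of the 30 cells of the WT 1 clone and in 4 of the 31 cells of the WT 2 clone. It was read in 0 cells of the KO 1 and the KO 2 clone.

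The alpha chain of the KO 2 clone, which has 0 inferred added bases, was also that of the clonotype of rank 3 in WT 2. That clonotype had 12 cells and another beta chain, TRBV15-TRBJ1-5. Over both libraries this 1 alpha nucleotide sequence was carried by 13 cells with 2 beta chains in WT 2 and by 34 cells with 2 beta chains in KO 2.

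The clones of ranks 2 and 3 were of like size in WT 1, KO 1 and WT 2. WT 1 held 14 cells of TRBV13-1-TRBJ2-2 with TRAV7-5-TRAJ37 and 14 of TRBV5-TRBJ2-2 with TRAV8-1-TRAJ2. KO 1 held 14 cells of TRBV19-TRBJ2-7 with TRAV6N-6-TRAJ31, and 12 of a beta chain whose V label joins TRBV12-2 and TRBV13-2, with TRAV12-2-TRAJ32. In WT 2 the second clone had 17 cells, with the joined label and TRBJ2-3, and TRAV13N-2-TRAJ39. KO 2 held 31 cells of TRBV13-3-TRBJ2-1 with TRAV4N-4-TRAJ21 and 29 of TRBV26-TRBJ1-2 with TRAV6N-7-TRAJ40. As shares of their libraries the 3 largest clones of KO 2 made up 0.551%, 0.517% and 0.484%, below the largest clones of WT 1 (0.739%) and WT 2 (0.695%).

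Few receptors were found in more than 1 library. Of 14148 receptors by nucleotides, 13 occurred in 2 control Ig libraries and 0 in 3 or more. Of these, 11 joined a WT and a KO library, 2 joined the KO libraries and 0 joined the WT libraries. Within experiments there were 4 between WT 1 and KO 1 and 6 between WT 2 and KO 2, which is 0.506 and 0.344 per 1000000 possible pairs of clonotypes. Across experiments the rates were 0 for WT 1 with WT 2, 0 for WT 1 with KO 2, 0.119 for KO 1 with WT 2 and 0.182 for KO 1 with KO 2. The rates within an experiment were thus above those across, and the libraries of an experiment share a batch, whose part in this was not tested.

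The 4 shared receptors with most cells are printed to show how far from the segment ends such shared joints lie. Capitals again mark bases assigned to neither V nor J.
shared 1 TRB: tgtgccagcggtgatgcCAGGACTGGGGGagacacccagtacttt
shared 1 TRA: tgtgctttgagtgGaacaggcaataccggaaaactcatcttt
shared 2 TRB: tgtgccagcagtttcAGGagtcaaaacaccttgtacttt
shared 2 TRA: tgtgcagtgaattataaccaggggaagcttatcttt
shared 3 TRB: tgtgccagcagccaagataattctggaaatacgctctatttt
shared 3 TRA: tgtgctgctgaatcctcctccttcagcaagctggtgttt
shared 4 TRB: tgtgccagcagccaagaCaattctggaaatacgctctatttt
shared 4 TRA: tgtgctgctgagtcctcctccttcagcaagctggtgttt

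Receptor 1 has the joined TRBV label with TRBJ2-5, and TRAV12N-2-TRAJ37, and was found in 12 cells of WT 1 and 1 cell of KO 1. Its beta chain carries 12 bases assigned to neither segment. Receptor 2, TRBV14-TRBJ2-4 with TRAV7N-6-TRAJ23, had 8 cells in WT 1 and 2 in KO 1, with 3 such bases in the beta chain and 0 in the alpha chain. The median TRB UMIs of the cells were 16.5 in WT 1 and 14 in KO 1 for the first, and 7.5 and 10 for the second.

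Receptors 3 and 4 are TRBV2-TRBJ1-3 with TRAV4-3-TRAJ50 and encode the same amino acids. They differ at 1 base in each chain, T18C in TRB and A12G in TRA, counted from 1 at the 5′ end of the CDR3 with receptor 3 as the reference. Receptor 3 was in 1 cell of WT 2 and 5 of KO 2, and receptor 4 in 1 cell of WT 2 and 4 of KO 2. Both are close to the germline, with 0 and 1 inferred bases between V and J in TRB and 0 in TRA. Receptor 5, TRBV16-TRBJ2-7 with TRAV13N-2-TRAJ27, linked the experiments, with 2 cells in KO 1 and 2 in KO 2. Receptor 6, TRBV5-TRBJ2-5 with TRAV7-6-TRAJ39, had 2 cells in WT 1 and 1 in KO 1. The WT 2 cell of receptor 4 and the KO 1 cell of receptor 6 rested on 1 TRB UMI each.

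More receptors were shared at the level of amino acids. Of 13966 receptors named by TRBV, TRBJ, TRAV family, TRAJ and the residues of both CDR3s, 66 were in 2 or more libraries and 6 in 3 or more. A WT and a KO library shared 50 of the 66, the WT libraries alone 9 and the KO libraries alone 7. Most of the possible pairs of clonotypes join a WT to a KO library, so these counts are no measure of sharing by genotype. A version is here 1 set of V labels and CDR3 nucleotides, so the same nucleotides under 2 labels of V copies count as 2 versions. Of the 66, 58 had several versions. Another 89 receptors had several versions within 1 library. The rates per 1000000 pairs were 1.39 for experiment 1 and 1.60 for experiment 2. Across experiments they were 0.958 for WT 1 with WT 2 and 0.999 for KO 1 with KO 2. For WT 1 with KO 2 the rate was 0.795, and for KO 1 with WT 2 it was 0.711.

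The receptor with most versions, chosen after the counts were seen, joined TRBV5-TRBJ2-4 to a TRAV6 family chain with TRAJ21. It had 8 versions in 24 cells, of which 21 were in KO 2, 3 in WT 2 and 0 in experiment 1. Its beta CDR3 was written in 6 ways and its alpha CDR3 in 4, printed here with capitals for the bases that differ from the version with most cells.
TRB version 1, 14 cells: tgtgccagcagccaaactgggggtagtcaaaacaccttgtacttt
TRB version 2, 3 cells: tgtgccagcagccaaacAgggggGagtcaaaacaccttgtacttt
TRB version 3, 3 cells: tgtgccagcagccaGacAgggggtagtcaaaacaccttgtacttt
TRB version 4, 2 cells: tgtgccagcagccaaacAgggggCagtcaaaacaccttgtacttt
TRB version 5, 1 cell: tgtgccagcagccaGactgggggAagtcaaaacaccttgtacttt
TRB version 6, 1 cell: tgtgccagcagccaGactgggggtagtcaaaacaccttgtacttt
TRA version 1, 11 cells: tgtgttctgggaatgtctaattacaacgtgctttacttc
TRA version 2, 9 cells: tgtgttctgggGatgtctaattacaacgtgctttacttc
TRA version 3, 3 cells: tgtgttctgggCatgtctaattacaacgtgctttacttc
TRA version 4, 1 cell: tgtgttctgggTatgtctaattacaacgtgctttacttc

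The beta versions differ at positions 15, 18 and 24 of 45, with the changes A15G, T18A, T24G, T24C and T24A. The alpha versions differ at position 12 of 39 alone, with A12G, A12C and A12T. All of them leave the residues unchanged. The next by number of versions was TRBV1-TRBJ2-4 with a TRAV13 family chain and TRAJ30, with 7 versions in 8 cells (1 in WT 1, 1 in WT 2 and 6 in KO 2). Then came TRBV20-TRBJ1-1 with TRAV10 and TRAJ21, with 5 versions in 7 cells (1 in KO 1, 3 in WT 2 and 3 in KO 2). KO 2 has the most clonotypes of the 4 libraries, and whether KO mice form such versions more often was not tested.

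A beta chain could also occur with several main alpha chains in a library. This held for 104 of 3302 beta chains in WT 1 (3.15%), 68 of 2234 in KO 1 (3.04%), 126 of 3516 in WT 2 (3.58%) and 240 of 4508 in KO 2 (5.32%). KO 2 was the highest, and experiment 1 showed a difference of the other sign. The libraries were not thinned for this count, and KO 2 is the one with most cells. In 22, 15, 30 and 32 of these, 1 cell carried an alpha as its second chain that was the main chain of another cell with that beta. The most alpha chains on 1 beta chain were 7 in WT 1, 3 in KO 1, 4 in WT 2 and 5 in KO 2.

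Segment use was compared over clonotypes, each counted once, with edgeR's quasi-likelihood test and Benjamini-Hochberg adjustment over all segments. Of 153 segments tested, 1 passed an adjusted p of 0.05, which is 0.654%. It was the alpha V label TRAV6N-5, and 1 segment had an unadjusted p under 0.05. The signs of KO minus WT matched between the experiments for 80 of 153 segments, 52.3%.

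**Figure D2:**
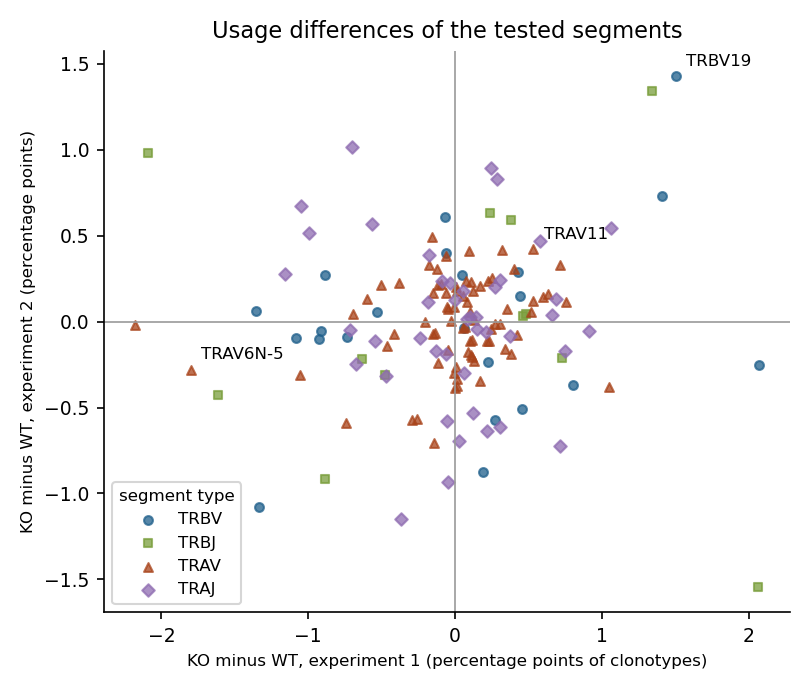
KO minus WT share of clonotypes in experiment 1 (x axis) and experiment 2 (y axis), in percentage points, for the 153 tested segments, with the shape giving the segment type. Points spread over all 4 quadrants. TRAV6N-5, the called segment, is lower in KO in both experiments, and TRBV19 (upper right) is higher in both without passing the test.

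TRAV6N-5 (chr14:53104871-53105344, GRCm38.p6) is 1 of 3 copies of a V segment in the part of the alpha locus that is repeated in mice. It made up 2.10% of clonotypes in WT 1 (72 clonotypes), 0.303% in KO 1 (7), 0.656% in WT 2 (24) and 0.377% in KO 2 (18). WT 1 stood far above the others, and both WT libraries lay above both KO libraries. The log2 fold change was -1.96 ± 0.44 (SE), with an adjusted p of 0.00185 in edgeR. Without WT 1 it was -0.90 (adjusted p 0.997), so the size and the call rest on that library. Without KO 1 it was -1.85 (edgeR adjusted p 0.108) and without KO 2 -2.16 (edgeR adjusted p 0.136), so the call was lost at a like fold. The label was no single clone there. Its 72 clonotypes of WT 1 used 28 TRAJ and 19 TRBV labels and had at most 3 cells each.

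The most common V sequence did not separate the label from another copy. Over the 267 bases of V sequence compared, the most common sequence under TRAV6N-5 and that under TRAV6-5 (chr14:53491152-53491622) differed at 0 positions. Of the alpha chains labelled TRAV6N-5, 100% in WT 1, 80% in KO 1, 94.3% in WT 2 and 77.8% in KO 2 carried that sequence. The most common sequence of TRAV6D-5 (chr14:52795165-52795633) differed from both at 11. Among 89 TRAV labels, 6 in 3 pairs had a most common sequence identical to another label. TRAV6-5 ran against TRAV6N-5 in experiment 1, at 0.701% in WT 1 and 1.21% in KO 1, and stood at 1.64% and 1.70% in WT 2 and KO 2.

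With TRAV6-5 and TRAV6N-5 summed, an alternative chosen after the data were seen, the shares were 2.803% in WT 1, 1.52% in KO 1, 2.30% in WT 2 and 2.07% in KO 2. The log2 fold change shrank to -0.48 ± 0.33 (SE), with an adjusted p of 0.982 in edgeR. With all D and N copies counted with their base segment the value was -0.51 ± 0.27 (SE), adjusted p 0.972 in edgeR. Both sums kept the WT libraries above the KO libraries in each experiment, but neither passed the test. TRAV6D-5 was at 0.380%, 0.390%, 0.520% and 0.189%. Labels of the N copies as a whole took 35.8% of clonotypes in WT 1, 31.7% in KO 1, 31.3% in WT 2 and 30.9% in KO 2, and labels without a copy letter took 43.9%, 49.6%, 51.2% and 51.6%, so WT 1 also stood apart in copy labels in general.

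**Figure D3:**
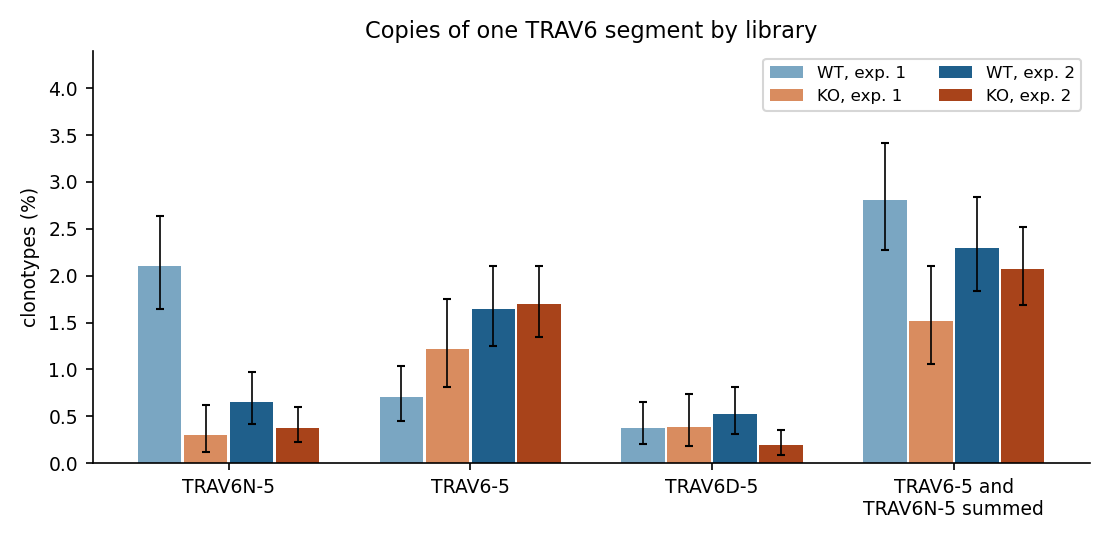
Percent of clonotypes (y axis) with each copy label of 1 TRAV6 segment and with the sum of 2 copies whose most common sequence is identical, for the 4 control Ig libraries. Bars are shares and error bars 95% Clopper-Pearson intervals (counting error). TRAV6N-5 is highest in WT 1 (2.10%), and the summed copies range from 1.52% to 2.803%.

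Among beta V segments, TRBV19 had the smallest p of those higher in KO. It was at 2.83% in WT 1, 4.33% in KO 1, 4.10% in WT 2 and 5.53% in KO 2. Both KO libraries lay above both WT libraries, though WT 2 was close to KO 1. Its log2 difference was 0.51 ± 0.26 (SE), adjusted p 0.982 in edgeR, and ran from 0.27 without WT 1 to 0.80 without WT 2. TRBV30 stood at 0.380%, 0.824%, 0.356% and 0.503% in WT 1, KO 1, WT 2 and KO 2, and TRBV29 at 2.13%, 2.56%, 2.08% and 2.37%. On the other side were TRBV17 (1.43%, 0.520%, 1.12% and 1.07%), TRBV14 (2.51%, 1.78%, 1.997% and 1.91%) and TRBV13-1 (7.36%, 6.03%, 7.58% and 6.49%). None of these passed the test. The most used were the joined TRBV12-2 and TRBV13-2 label at 12.03% to 13.5%, TRBV3 at 8.54% to 9.90% and TRBV31 at 6.98% to 8.54%.

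The TRBJ segments lie in 2 clusters, each behind its own D segment and before its own constant gene. TRBJ1 segments took 30.1% of clonotypes in WT 1, 31.7% in KO 1, 30.1% in WT 2 and 31.9% in KO 2. Both KO libraries were above both WT libraries, by 1.58 and 1.83 percentage points. The 6 TRBJ1 and the 6 TRBJ2 segments tested held 0 called members each, with median log2 differences of 0.08 and -0.02 beside 0.04 over all segments. TRBJ1-6 (2.13%, 2.51%, 2.41% and 2.996%) and TRBJ1-1 (8.58%, 9.93%, 7.33% and 8.67%) had the smallest p among those higher in KO, TRBJ2-1 (11.0%, 9.36%, 10.1% and 9.64%) among those lower. The most used were TRBJ2-7 (17.7% to 19.1%), TRBJ2-5 (13.3% to 15.7%) and TRBJ2-1. As a check of the cluster, though not of the segment within it, 0 clonotypes with a TRBJ1 segment carried TRBC2. Likewise 0 with a TRBJ2 segment carried TRBC1. Between 19 and 57 clonotypes per cluster and library had no constant gene label.

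Alpha V and J segments varied between libraries without a call other than TRAV6N-5. TRAV5N-4 was at 0.584%, 1.30%, 0.821% and 1.15% in WT 1, KO 1, WT 2 and KO 2, a log2 difference of 0.79 ± 0.40 (SE). TRAV9-1 was at 0.146%, 0.217%, 0.246% and 0.482%. TRAV13N-1 ran the other way, at 1.84%, 0.780%, 1.504% and 1.19%, and so did TRAV7N-5, at 1.49%, 1.34%, 1.67% and 0.964%. Of the J segments, TRAJ47 (0.467%, 1.13%, 0.629% and 0.670%) and TRAJ52 (1.72%, 2.30%, 2.11% and 2.58%) had higher shares in KO in both experiments. TRAJ24 (1.08%, 0.607%, 1.18% and 0.859%), TRAJ34 (3.53%, 3.16%, 4.65% and 3.499%) and TRAJ39 (3.12%, 3.08%, 3.36% and 2.43%) had lower ones. All had an adjusted p of 0.982 in edgeR. The most used labels were TRAV7D-2 (5.97% to 8.20%), TRAV6D-6, TRAV4N-4, TRAJ31 (6.31% to 7.46%), TRAJ23 and TRAJ37.

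The other lists gave no call. Segments of the Vβ8 family (TRBV13 labels), a common family in mice, had 0 of 4 called, with a median log2 difference of -0.02 and shares of 29.7%, 30.3%, 28.4% and 27.6%. Vβ5 (TRBV12-1 and TRBV12-2) had 0 of 2 called, a median of -0.48 and shares of 3.42%, 1.60%, 2.05% and 2.22%. The alpha segments of mucosal-associated invariant T cells had 0 of 2 called (median -0.28), and their beta partners 0 of 5 (median 0.00).

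In all 4 libraries, clonotypes with a V segment near the J cluster had higher TRAJ numbers on average. Alpha V segments lie upstream of the J segments, J segments are numbered downwards toward the constant gene, and a chromosome can rearrange again with outer V and J segments. TRAV labels were put into 3 equal classes by position. Clonotypes with a V in the class nearest the J segments had a mean TRAJ number of 37.7 in WT 1, 37.5 in KO 1, 37.5 in WT 2 and 36.6 in KO 2. Those with a V in the farthest class had 25.6, 26.6, 28.3 and 26.6, and those in the middle class 24.4, 24.7, 26.5 and 25.9, so the middle and far classes were close to each other. Across clonotypes, Spearman's rho between the start of V and the TRAJ number was 0.403, 0.395, 0.394 and 0.399, over 3425, 2307, 3656 and 4773 clonotypes of 1 library each, and is given as a description.

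The mean TRAJ number over all clonotypes was 29.2 in WT 1, 30.2 in KO 1, 31.6 in WT 2 and 30.6 in KO 2. KO minus WT was 0.94 in experiment 1 and -0.98 in experiment 2. WT 1 had the largest share of TRAJ1 to TRAJ15 (19.6%, against 18.2%, 12.9% and 15.5%), and also the smallest share of V segments in the class nearest J (34.0%, against 39.0%, 42.5% and 42.2%). The V labels nearest J carry no copy letter, and WT 1 had the smallest share of such labels (43.9%, against 49.6%, 51.2% and 51.6%). Of 89 TRAV labels, 6 had the same most common sequence as another label. The V class of those labels depends on how copies were labelled. What part this has in the shares of WT 1 was not tested.

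TRAV21-DV12 (chr14:53876016-53876752) is a V segment near the J cluster. Its pairs with TRAJ58 (chr14:54157280-54157342), TRAJ57 and TRAJ56, all at the V side of the J cluster, were seen more often than the product of the shares of the segments gives. The ratio of observed to expected clonotypes was 10.9 to 14.4 for TRAJ58, 5.32 to 10.4 for TRAJ57 and 6.79 to 9.43 for TRAJ56 in the 4 libraries. The mean TRAJ number of TRAV21 clonotypes was 50.6, 48.8, 49.6 and 50.9. These ratios describe pairs with 40 or more clonotypes over the 4 libraries.

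No V to J or beta to alpha pairing was called. Of 497 pairs tested with edgeR, 0 passed (0%), 8 had an unadjusted p under 0.05, and DESeq2 called 0 as well. The smallest p belonged to the TRAV4 family with TRAJ44, with 4 clonotypes in WT 1, 1 in KO 1, 12 in WT 2 and 2 in KO 2. Next came the TRAV13 family with TRAJ18, with 11, 3, 13 and 5, and TRBV3 with TRBJ1-5, with 9, 2, 6 and 1. In these pairs the KO libraries were lower in both experiments, on at most 13 clonotypes.

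Among the pairs higher in KO, the joined TRBV label with the TRAV21 family had 1, 7, 4 and 11 clonotypes. TRBV19 with TRBJ2-2 had 5, 10, 7 and 16, TRBV19 with the TRAV13 family 8, 12, 12 and 32, and the TRAV4 family with TRAJ26 5, 10, 9 and 20. All had an adjusted p of 0.997 in edgeR. The most used pairs were the joined TRBV label with TRBJ2-7 (1.96% to 2.64% of clonotypes), with the TRAV7 family (2.17% to 3.04%) and, for alpha chains, the TRAV6 family with TRAJ31 (1.32% to 1.95%). Of the pairs with 40 or more clonotypes, 26 of 113 alpha pairs, 23 of 126 beta pairs and 15 of 101 beta to alpha pairs were above the product of their shares in all 4 libraries. Below it in all 4 libraries were 11 alpha, 14 beta and 14 beta to alpha pairs. The minimum of 40 was set on the observed count, which favours ratios above 1. The leading beta pair was TRBV19 with TRBJ2-1, at ratios of 1.97, 2.14, 1.66 and 1.30.

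Receptors of invariant natural killer T (NKT) cells were present in every library. These cells recognise lipids on CD1d with an alpha chain of TRAV11 joined to TRAJ18, and many bear NK1.1, the target of the antibody given to all mice. Cells with this alpha chain made up 0.271% of WT 1 (11 cells, 95% Clopper-Pearson interval 0.135% to 0.485%), 0.587% of KO 1 (16, 0.336% to 0.951%), 1.37% of WT 2 (61, 1.05% to 1.75%) and 1.75% of KO 2 (105, 1.44% to 2.12%). The KO was higher in each experiment, by 0.315 and 0.385 percentage points, with intervals that overlap within each experiment. The experiments differed more, and both libraries of experiment 2 lay above both of experiment 1.

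The NKT cells were nearly all distinct clones, with 11, 16, 61 and 104 clonotypes, and 2 cells of KO 2 shared 1. The beta V label was TRBV13-2 or the joined label in 6 of 11, 7 of 16, 31 of 61 and 56 of 105 cells, and TRBV29 in 2, 6, 13 and 20. The pair of the joined label with TRAV11 had 3.12 to 4.01 times the clonotypes that the product of shares gives, and TRAV11 with TRAJ18 had 22.6 to 36.6 times. The NKT alpha segments TRAV11 and TRAJ18 had log2 differences of 0.58 ± 0.37 and 0.38 ± 0.23 (SE), and 0 of 2 passed (adjusted p 0.982 in edgeR). TRAV11 ran from -0.26 without KO 2 to 2.09 without WT 2, while its share was higher in KO within each experiment. The fits without a library had no term for the experiment and left the experiments unbalanced between WT and KO. Both libraries of experiment 2 had more TRAV11 than both of experiment 1. The range therefore cannot tell whether the direction of TRAV11 rests on single libraries. TRAV11D was below the filter. Of the 6 beta partner labels 0 were called, with a median of -0.02.

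A single protein sequence was written by several nucleotide sequences in these cells. Of 193 NKT cells, 170 carried the same alpha CDR3 residues in 9 nucleotide versions. The 4 with most cells differ only at base 12, in capitals, where V and J meet.
NKT alpha 1, 66 cells: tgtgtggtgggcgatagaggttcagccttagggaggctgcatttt
NKT alpha 2, 54 cells: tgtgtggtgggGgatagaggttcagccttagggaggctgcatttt
NKT alpha 3, 23 cells: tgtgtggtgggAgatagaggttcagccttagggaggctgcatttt
NKT alpha 4, 22 cells: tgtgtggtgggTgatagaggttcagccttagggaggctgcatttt

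The changes from the first are C12G, C12A and C12T. Version 1 was in 5 cells of WT 1, 5 of KO 1, 22 of WT 2 and 34 of KO 2, and version 2 in 2, 5, 17 and 30. Version 3 was in 0, 2, 6 and 15 cells and version 4 in 0, 3, 10 and 9. The first 2 versions were thus in all 4 libraries. The 0 cells of versions 3 and 4 in WT 1 are out of 11.

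A second productive alpha chain was read in a larger share of KO cells in both experiments. T cells silence the second beta allele strictly and the second alpha allele loosely, so some cells carry 2 productive alpha chains. The share of paired cells with 2 TRA was 5.18% in WT 1 (210 cells, 95% Clopper-Pearson interval 4.51% to 5.90%) and 6.09% in KO 1 (166, 5.22% to 7.05%). It was 5.16% in WT 2 (230, 4.53% to 5.85%) and 5.98% in KO 2 (358, 5.39% to 6.61%). Both KO libraries lay above both WT libraries, while the intervals overlap within each experiment. KO minus WT was 0.909 and 0.818 percentage points, a mean of 0.863 ± 0.065 (SD, n = 2 experiments).

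The reading of a second chain depends on depth. The median UMIs of the main TRA were 7 in WT 1, 6 in KO 1, 7 in WT 2 and 8 in KO 2. KO 1 thus had the higher share at the lower median, and KO 2 at the higher median. Cells with a TRB and no TRA were fewer in KO 1 (33.8%) and KO 2 (36.4%) than in WT 1 (42.3%) and WT 2 (41.99%). Whether TRA was read more readily in the KO libraries, and its part in the second chains, was not tested. Among cells with 1 to 4 UMIs on the main TRA the share was 2.18% in WT 1, 23 of 920 cells in KO 1, 1.85% in WT 2 and 2.801% in KO 2. With 5 to 8 UMIs it was 4.598%, 7.21%, 4.65% and 5.60%, and with 9 to 12 UMIs 7.26%, 8.97%, 6.37% and 7.37%. With 13 or more UMIs it was 10.1%, 8.99%, 9.63% and 7.59%, so in the deepest cells the WT was higher in both experiments. Standardised to 1 distribution of main TRA UMIs, KO minus WT was 1.43 percentage points in experiment 1 and 0.479 in experiment 2.

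Weak second chains were unevenly spread. The second TRA rested on 1 UMI in 2 cells of WT 1, 12 of KO 1, 2 of WT 2 and 15 of KO 2. With 2 or more UMIs required, KO minus WT had a mean of 0.565 percentage points. Cells with 2 TRB, which were left out and which hold doublets, made up 4.41%, 3.82%, 4.37% and 5.45% of all cells, lower in the KO in experiment 1 and higher in experiment 2. The part of doublets in the second alpha chains was not tested.

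**Figure D4:**
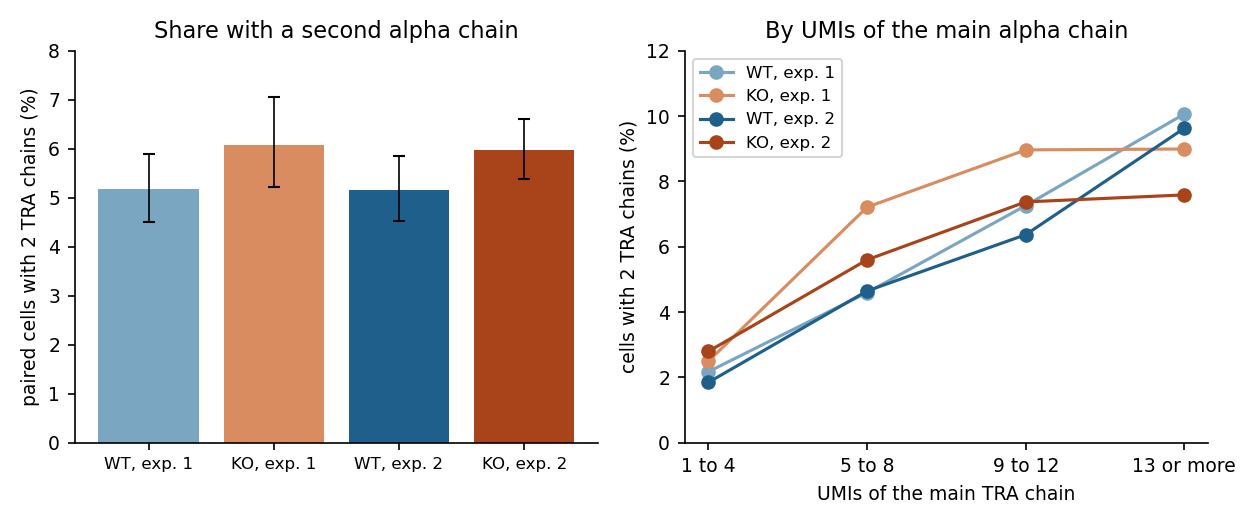
Left, percent of paired cells with 2 TRA chains in each control Ig library, with 95% Clopper-Pearson intervals (counting error). Right, the same percent by UMIs of the main TRA: KO lies above WT of its experiment in the first 3 classes and below it at 13 or more UMIs.

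The 2 alpha chains of a cell often used J segments from the same stretch of the locus. The median distance between their TRAJ numbers was 8.5 in WT 1, 7 in KO 1, 9 in WT 2 and 8 in KO 2. Spearman's rho between the 2 numbers was 0.501, 0.509, 0.424 and 0.444, over 210, 166, 230 and 358 cells of 1 library each, as a description. The 2 chains came from the same TRAV family in 11.0%, 11.4%, 6.96% and 12.01% of these cells. The second chain had a median of 0.631, 0.622, 0.667 and 0.667 times the UMIs of the main chain. The median distance was slightly smaller in the KO of each experiment. The share of 1 family was larger there, on 23 cells in WT 1, 19 in KO 1, 16 in WT 2 and 43 in KO 2. In experiment 1 that share was nearly equal, and neither difference was tested.

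Clone mates show how often the second chain is read. Of 38 clonotypes with 3 or more cells in which 2 or more cells had a second TRA, the second TRA was the same in all of them in 34. Within these 38 clonotypes, 92 of 240 cells (38.3%) carried it. That was 28.8% of cells in WT 1, 55.9% in KO 1, 25.4% in WT 2 and 52.2% in KO 2. The clonotypes were chosen for having 2 such cells and were smaller in the KO (34 cells in 8 clonotypes of KO 1 against 66 in 7 of WT 1, and 69 in 15 of KO 2 against 71 in 8 of WT 2). In a smaller clone the same 2 cells make a larger share. Cells of clonotypes of 2 or more had a second TRA in 5.07%, 6.79%, 4.15% and 5.60%, and single cells in 5.21%, 5.88%, 5.52% and 6.13%, so the KO was higher in both kinds.

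CDR3 lengths were alike for beta chains and slightly longer in KO for alpha chains. The mean CDR3 beta length was 13.80 residues in WT 1, 13.82 in KO 1, 13.79 in WT 2 and 13.76 in KO 2, with differences of 0.026 and -0.030. The mean CDR3 alpha length was 13.40, 13.46, 13.42 and 13.48, higher in KO by 0.060 in both experiments. Both KO libraries lay above both WT libraries, by a small part of the SD of 1.27 to 1.35 residues between clonotypes. With cells counted in place of clonotypes the difference was 0.069 in experiment 1 and 0.00020 in experiment 2.

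By length class, alpha CDR3s of 12 residues were fewer in KO (15.5%, 14.8%, 15.6% and 14.9% in WT 1, KO 1, WT 2 and KO 2). Those of 15 residues were more frequent (12.4%, 13.5%, 14.1% and 16.0%), and so were those of 16 (3.12%, 4.29%, 3.75% and 4.21%). At 13 residues, the most common length in WT 1, WT 2 and KO 2, the experiments had opposite signs. These classes were picked after their values were seen.

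**Figure D5:**
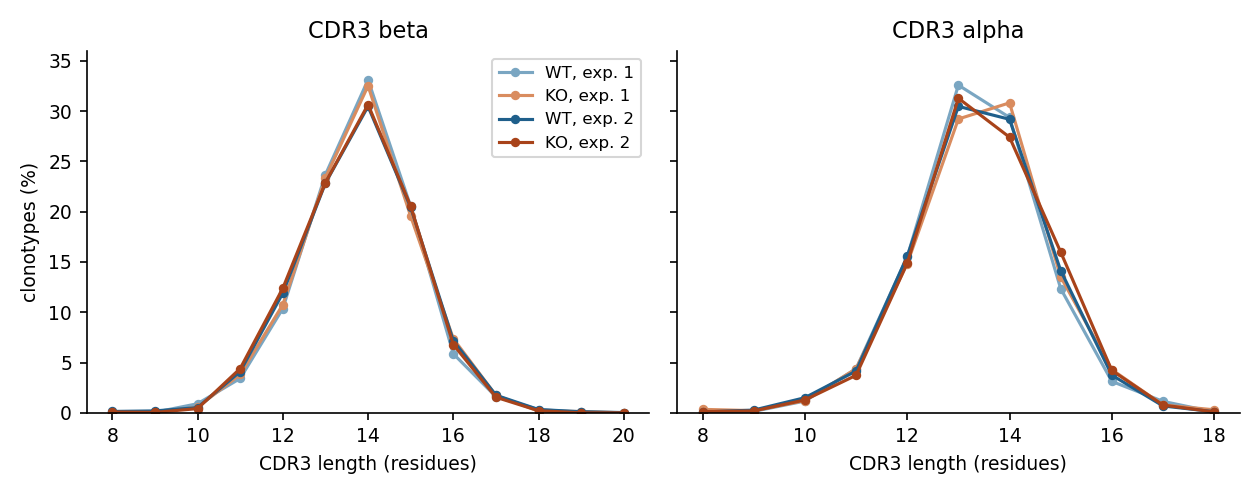
Percent of clonotypes (y axis) by CDR3 length in residues (x axis) for beta (left) and alpha chains (right) of the 4 control Ig libraries. The beta curves peak at 14 residues (30.5% to 33.1%), and the alpha curves lie close together, with 12.4% to 16.0% at 15 residues.

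The joints themselves did not move one way. The mean number of bases between V and J, with segment ends inferred from the chains, was 9.25 in WT 1, 9.44 in KO 1, 9.31 in WT 2 and 9.16 in KO 2 for TRB. For TRA it was 2.47, 2.34, 2.48 and 2.55. Alpha chains with 0 such bases made up 19.7%, 20.8%, 20.9% and 19.2% of clonotypes. The mean hydropathy of the centre of CDR3 beta (Kyte-Doolittle scale, residues other than the first 4 and last 4) was -1.17, -1.20, -1.18 and -1.17. In each of these, KO minus WT had opposite signs in the 2 experiments.

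Over the 10 measures compared between libraries (expanded share, Simpson concentration, second alpha, 2 lengths, 2 joint sizes, hydropathy, NKT share and TRAJ number), 4 had the same sign in both experiments. A two-sided exact permutation over the 6 arrangements of 4 libraries gave p from 0.333 to 1, and 0.333 is the smallest it can give, reached by 3. No difference of 2 against 2 libraries can therefore pass 0.05 in it, and these values are descriptions. The permutation also ignored the pairing by experiment, so differences between the experiments enter its p.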

How the data were processed

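Single-cell T cell receptor libraries (10x 5′) of CD44high CD4+ spleen cells were deposited as contig tables, 1 per library. The submitters' processing notes name Cell Ranger 7.1.0, bcl2fastq 2.20.0, Seurat and GRCm38, with no role for each, and the V(D)J reference is not given in the sources used here. Per the file headers, each deposited contig carries counts of reads and UMIs, V, J and C labels, CDR3 and filter flags, and 0 of 55687 contigs of the 4 libraries failed a filter, so the authors had filtered before depositing. Intervals cover counting error only. Gene expression libraries were not analysed here.

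Cells with 1 TRB and 1 or 2 TRA were kept. Doublets were treated only by this rule, and of 17235 cells 791 had a barcode also found in another library. A TRBV label that joins TRBV12-2 and TRBV13-2 was kept apart (the CDR1 was that of TRBV13-2 in 99.8% of 3967 contigs). Clonotypes were counted per segment and per pair, and edgeR 4.0.16 (R 4.3.3, quasi-likelihood test) was fitted over 8 libraries with 4 group means, for features with 10 or more clonotypes in 2 or more libraries, with Benjamini-Hochberg adjustment over all segments or all pairs. All TRAV labels were given 1 pooled spread, since edgeR estimated no spread of their own for them (infinite prior degrees of freedom). DESeq2 1.42.0 was an alternative, as were other filters, UMI minimums, clone definitions and no thinning, and the fits were tested on simulated data. Single values were computed with scipy 1.17.1, pandas 2.3.3 and numpy 2.4.6 under Python 3.11.15, and plots with matplotlib 3.10.9. V and J ends were inferred from the chains, since no genome was at hand, a choice made after the data were seen. Coordinates are RefSeq's for GRCm38.p6, in which 165 of 166 labels matched a symbol.

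Members, lists and measures were chosen with earlier results of these data known. The named segments and pairs were those called, the 3 with the smallest p in each direction among those with 1 sign in both experiments, the 3 most used of each type, and the lists (NKT and mucosal-associated invariant T cell segments, Vβ8, Vβ5, TRBJ clusters, TRAV6 copies). The labels mark the experiment as a shared batch, so it pairs WT with KO. As a check, deviations of WT and KO from their group means correlated at 0.281 over 153 segments, a single value, since with 2 libraries a group the deviations of the experiments mirror each other.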

Additional observations from a re-analysis of the deposited data

How the results depend on the processing

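The single segment call depended on the processing. It stood in the paired fit with a replicate block (1 call, TRAV6N-5 at -1.74 on the log2 scale, edgeR adjusted p 0.00621), and the block changed no other call. It became 0 with DESeq2 (TRAV6N-5 at -2.04, adjusted p 0.116), with cells counted in place of clonotypes (-2.16, edgeR adjusted p 0.0746), both at a like fold, with all TRAV copies summed, and with TRAV6-5 and TRAV6N-5 summed, the last chosen after seeing the data. Leaving out 1 library gave 0 to 2 calls, with 0 without WT 1, KO 1 or KO 2 and 2 without WT 2, where TRAV11 was the other (log2 2.09, edgeR adjusted p 0.0152). TRAV11 reversed to -0.13 without WT 1 and to -0.26 without KO 2, while it was higher in KO within each experiment. The fits without 1 library had no term for the experiment and left the experiments unbalanced between WT and KO. A group left with 1 library was assumed to vary like the others. Pair calls were 0 in every setting run, with 0 (DESeq2) to 33 pairs (no filter) at an unadjusted p under 0.05.

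The mean KO minus WT share of cells with 2 TRA moved to 0.565 percentage points with 2 or more UMIs on the second TRA and to 0.954 when standardised on main TRA UMIs. The CDR3 alpha length difference moved to 0.0347 residues with cells counted, 0.0588 with 3 or more UMIs, 0.0707 with 1 TRA and 0.0614 without shared barcodes. The NKT share difference moved to 0.410 with 1 TRA and 0.441 with clonotypes counted. Of 571 alternative values for the 42 segments and pairs named for their p, 563 kept their direction and side of the threshold. These were chosen from the same data with 1 sign in both experiments. All but TRAV6N-5 lay far from the threshold in the main fit. The count was thus largely set by the choice and is no measure of robustness. Of the 21 named as most used, whose differences were small, 15 changed sign in 1 or more settings. Libraries held 2307 to 4773 clonotypes, with 2 libraries a group, which limits the precision for rare segments.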

Other observations

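NKT alpha chains were also read in cells outside the rule. They were found in 2 of 528 cells with a TRA and no TRB in WT 1, 1 of 423 in KO 1, 1 of 436 in WT 2 and 2 of 583 in KO 2. Among cells with 2 TRB they were in 5 of 379, 3 of 193, 6 of 399 and 16 of 616.

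The centre of CDR3 beta held a tryptophan in 12.4% of clonotypes in WT 1, 11.8% in KO 1, 12.8% in WT 2 and 11.4% in KO 2, lower in the KO of both experiments. Glycine made up 21.8%, 22.0%, 21.8% and 22.0% of the residues there. These features were picked after their values were seen.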
